A study of Gallus gallus with 20 samples.

Results

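Levels in chicken liver are described for 10 protein genes of the mitochondrial genome (mtDNA), namely ND1, ND2, ND3, ND4, ND5, COX1, COX2, COX3, ATP6 and CYTB. They were taken by symbol from the 13956 rows of the count table that are named by a gene symbol, and all 10 were found and all 10 passed the filter on low counts. Total RNA of liver was sequenced after removal of ribosomal and globin RNA, from chickens of the breed Ogye aged 5 weeks, Cornish aged 5 weeks, Ogye aged 10 weeks and Cornish aged 10 weeks, to ask how the hepatic transcriptome goes with the weight difference between the breeds. Each of the 4 groups holds 5 libraries. No treatment is named for any group, and sex is not labelled. Nothing says that the 5 libraries come from separate birds, so a p-value reflects only how these libraries vary, which may be technical. In liver pieces, fewer mitochondria per cell, less RNA per mitochondrion and fewer cells of a type cannot be told apart.

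Animal mitochondria keep a small circular genome that encodes core subunits of the respiratory chain, the machinery that passes electrons to oxygen and stores the energy as ATP. Its genes are transcribed as long precursors from both strands by a dedicated polymerase, and the precursors are cut into single RNAs, mostly at the transfer RNAs that sit between the genes. The levels of the mature RNAs can therefore differ although they leave the same precursor. ND1 to ND5 encode membrane subunits of complex I, which takes electrons from NADH. CYTB encodes cytochrome b, the electron-carrying core of complex III. COX1, COX2 and COX3 encode the core of complex IV, which reduces oxygen, with the metal centres in COX1 and COX2. ATP6 encodes the subunit of ATP synthase that lets protons pass through the membrane. A few small subunits are also encoded in mtDNA, and the rest of these complexes in the nucleus.

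On chromosome MT of the build GRCg7b the genes follow one another with gaps of differing length, as their positions show. ND1 lies at 2824 to 3798, ND2 at 4015 to 5053, COX1 at 5419 to 6969, COX2 at 7108 to 7791 and ATP6 at 8017 to 8700. COX3 lies at 8700 to 9483, ND3 at 9553 to 9904, ND4 at 10264 to 11641, ND5 at 11849 to 13666 and CYTB at 13671 to 14813. All are annotated as protein-coding genes. The table also holds the other 3 protein genes of mtDNA. ATP8 (7862 to 8026) shares 10 bases with ATP6, and ND4L (9974 to 10270) shares 7 bases with ND4. ND6 (14962 to 15483) is the protein gene that vertebrate mtDNA carries on the strand opposite to the others. These 3 genes are described beside the 10 where they bear on them. The library kit keeps strand, but how the counting used it, and how it treated reads over shared bases, is not given in the sources used here, so ND6 cannot be told apart from RNA of the opposite strand. Reads of nuclear copies of mtDNA cannot be told apart from mtDNA in a count table either.

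Libraries held between 14865637 and 31848768 counts, of which 9625549 to 21106844 fell on named genes. Levels are given as CPM, counts per 1e+06 counts of tested named genes after TMM scaling, and changes as log2 fold change ± standard error. Genes count as called when the quasi-likelihood test of edgeR gives p under 0.05 after Benjamini-Hochberg adjustment over the 10697 named genes tested. All 9 fixed hepatocyte markers had counts in every group, and their sum ran from 181981 to 280041 CPM before TMM scaling. ALB alone, 1 of the 9, took from 4.09% to 19.1% of named counts. Both extremes were in Ogye at 10 weeks (replicates 2 and 4). ALB is part of the total of named counts that the shares below use. The markers of striated muscle, a tissue rich in mitochondria, summed to at most 10.0 CPM in any library, with MYBPC1 at 0 in all 20. Replicates 3, 4 and 5 of Ogye at 5 weeks stand apart from the other 17 libraries, as the mix of their mtDNA transcripts shows further on, and the main values that touch that group are also given without them. The breed labels need care as well. Of 246 named genes called between the breeds at both ages, 240 differed in opposite directions and 6 in the same direction, and without the 3 libraries these numbers were 62 and 1 of 63. The libraries of the breeds were wholly apart at both ages for 178 genes, in opposite directions for 176 of them. The cause of this turn was not tested, and breed names below are those of the labels. Were the breed labels exchanged at 1 age, each age comparison within a breed below, that in Cornish included, would set libraries of different breeds against each other, and the signs of the breed comparison at that age would turn. Whether they were cannot be told from the counts alone, and no value was computed for that case.

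Of all counts on named genes, the 10 genes together held from 6.43% to 11.2%, with both extremes in Ogye at 10 weeks (replicate 3 and replicate 5). In Ogye at 5 weeks the share was 8.24%, 7.72%, 8.69%, 8.29% and 7.69% in replicates 1 to 5, a mean of 8.13 ± 0.419% (SD, n = 5), and of 7.98% over replicates 1 and 2 alone. Cornish at 5 weeks had 8.46%, 9.65%, 6.50%, 8.10% and 7.56%, a mean of 8.05 ± 1.16%. Ogye at 10 weeks had 9.16%, 7.94%, 6.43%, 9.04% and 11.2%, a mean of 8.75 ± 1.74%. Cornish at 10 weeks had 10.1%, 10.6%, 10.2%, 10.2% and 9.58%, a mean of 10.1 ± 0.367%. Cornish at 10 weeks was thus the highest group on average and also the most even, and its lowest library lay just under the highest library of Cornish at 5 weeks. The 3 lower groups overlapped one another and did not differ beyond their spread. The share was not tested, since it is a score over genes chosen together. As a share of all rows of the table, assembled transcripts included, the 10 genes took 4.25% to 7.09%.

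**Figure D1:**
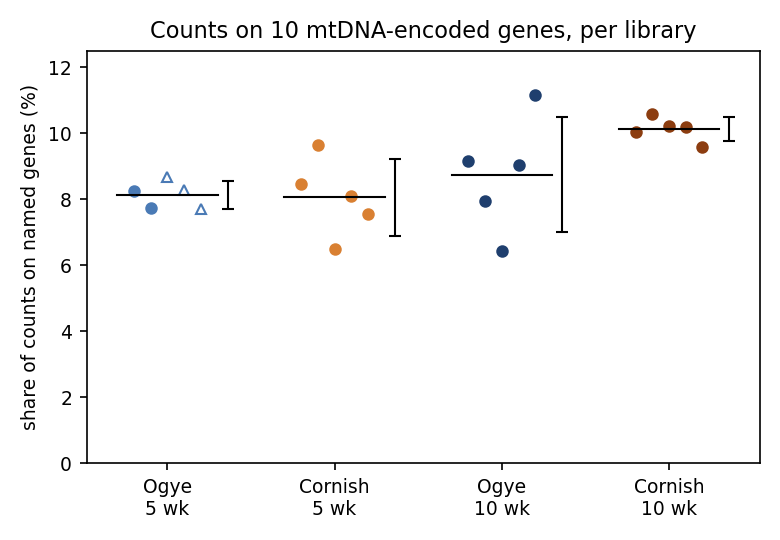
Share of the counts on named genes that fell on the 10 mtDNA-encoded genes (vertical axis, percent) in each of the 20 libraries, by group. Points are libraries, open triangles are replicates 3, 4 and 5 of Ogye at 5 weeks, horizontal lines are group means and bars beside them are ± 1 SD. Cornish at 10 weeks sits between 9.58% and 10.6%, while Ogye at 10 weeks spreads from 6.43% to 11.2%.

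Per length, the levels of the 10 genes followed the complex a gene belongs to. Averaged over the 20 libraries, COX1 stood at 22346 CPM per kb, COX2 at 17294, COX3 at 15644 and ATP6 at 11049 CPM per kb. CYTB followed at 6159 CPM per kb. The complex I genes were lowest, with ND4 at 3883, ND1 at 3271, ND2 at 3036, ND3 at 1960 and ND5 at 1622 CPM per kb. Outside the 10, ATP8, also of ATP synthase, stood at 6773 CPM per kb, nearer to CYTB than to ATP6. ND4L and ND6 stood at 1760 and 896 CPM per kb. COX1, COX2, COX3 and ATP6 were the 4 highest in each of the 4 groups, and CYTB ranked above the 5 complex I members in each. Neighbours in this order were close: COX2 and COX3 changed places in Ogye at 10 weeks, COX1 and COX2 in Ogye at 5 weeks through replicates 3, 4 and 5, and ND1, ND2 and ND4 ranked differently from group to group. Of the counts on the 10 genes, the 3 COX genes held 68.5 ± 1.56% in Ogye and 68.3 ± 1.96% in Cornish at 5 weeks, and 66.0 ± 1.20% and 63.3 ± 1.05% at 10 weeks. The 5 complex I genes held 15.3 ± 1.72% and 16.1 ± 1.23% at 5 weeks, and 17.8 ± 0.670% and 19.2 ± 0.992% at 10 weeks. In replicates 1 and 2 of Ogye at 5 weeks the COX genes held 66.6% and 67.6%, and the complex I genes 16.96% and 16.88%.

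Across the 20 libraries the 10 genes tended to rise and fall together. Over their 45 pairs the Spearman correlation of log2 CPM had a median of 0.78 and ran from 0.29 to 0.95. Over the 17 libraries without replicates 3, 4 and 5 of Ogye at 5 weeks the median was 0.91 and the lowest 0.70. The genes of a library share its scaling and depth, so these values are a description. In Ogye at 10 weeks replicate 3 was lowest and replicate 5 highest for all 10 genes.

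**Figure D2:**
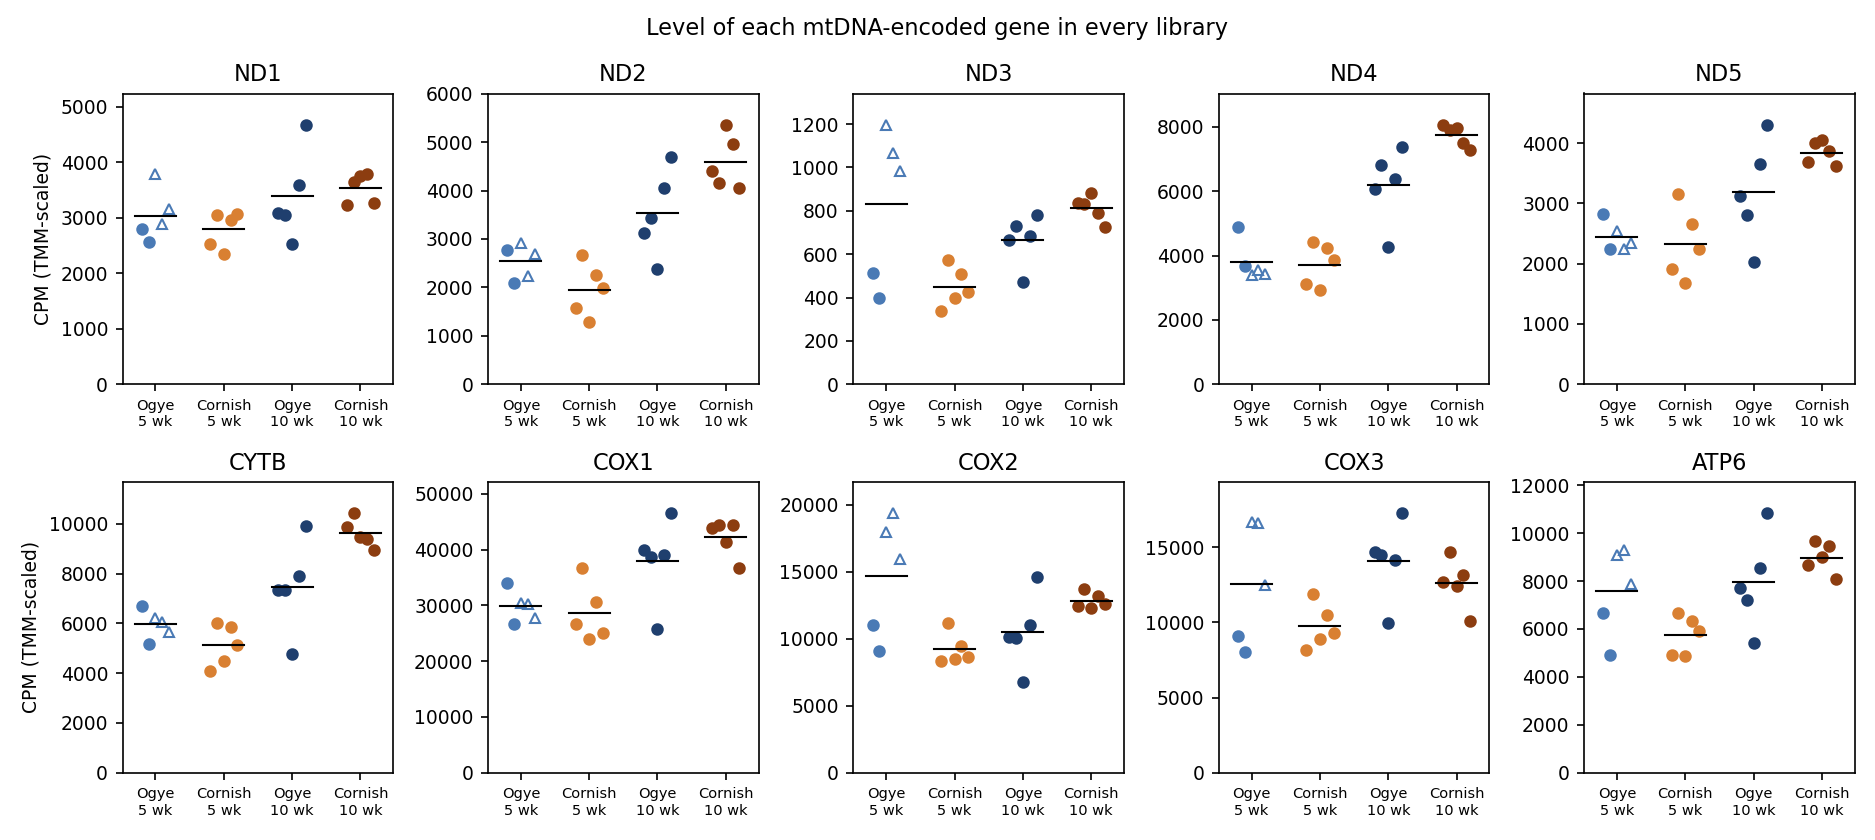
Level of each of the 10 genes in every library (vertical axis, TMM-scaled CPM from 0), by group. Points are libraries, open triangles are replicates 3, 4 and 5 of Ogye at 5 weeks and lines are group means. ND2, ND4 and CYTB show Cornish at 10 weeks above all Cornish libraries of 5 weeks, and ND3 and COX2 show the triangles above the other Ogye libraries of 5 weeks.

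The comparison of 10 with 5 weeks in Cornish asked how mtDNA transcripts differ with age in the meat breed, and it gave the clearest result. All 10 genes were higher at 10 weeks, with log2 fold changes between 0.34 and 1.23 and a median of 0.68, where the median of all tested genes was -0.04. ND2, ND4, CYTB, ND3 and ND5 rose, 5 of 10 genes, where 4.07% of all tested genes were called higher and 7.36% in either direction. None of the 10 was lower, against 3.29% of all tested genes. The libraries of the 2 ages did not overlap for 8 of the 10, against 16.3% of all tested genes, and they overlapped for COX1 and COX3. All these values are on TMM-scaled levels. Summed over the 10 genes, scaled levels ran from 59343 to 86448 CPM at 5 weeks and from 95471 to 113445 CPM at 10 weeks. The unscaled share of named counts ran from 6.50% to 9.65% and from 9.58% to 10.6%, which overlap. The ages were thus less apart before scaling, and fold changes without it were not computed.

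ND2, a membrane subunit of the proton-pumping arm of complex I, stood at 1567, 2667, 1294, 2255 and 1988 CPM in replicates 1 to 5 of Cornish at 5 weeks. At 10 weeks it stood at 4406, 4161, 5361, 4967 and 4061 CPM. All libraries of 10 weeks lay above all libraries of 5 weeks, a log2 fold change of 1.23 ± 0.21 (adjusted p = 0.0023, edgeR). ND4, another subunit of that arm, went from 3104, 4404, 2916, 4230.0 and 3862 CPM to 8065, 7896, 7949, 7492 and 7274 CPM. Its lowest library of 10 weeks was well above its highest of 5 weeks, and it rose by 1.06 ± 0.17 on the log2 scale (adjusted p = 0.0017, edgeR). CYTB went from 4103, 6031, 4498, 5843 and 5133 CPM to 9869, 10431, 9477, 9402 and 8954 CPM. Here too the ages were apart (log2 fold change 0.91 ± 0.18, adjusted p = 0.0056, edgeR). These 3 calls held in all 30 alternatives, with adjusted p of 1.6e-07 to 0.0086, 3.1e-09 to 0.0077 and 1.8e-06 to 0.019.

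ND3, a small subunit next to the site where complex I passes electrons to quinone, went in Cornish from 339, 574, 399.6, 507 and 424 CPM to 836, 833, 882, 791 and 728 CPM. The ages did not overlap and the change was 0.86 ± 0.25 on the log2 scale (adjusted p = 0.041, edgeR). ND5, at the far end of the membrane arm, ran from 1672 to 3152 CPM at 5 weeks and from 3627 to 4044 CPM at 10 weeks (log2 fold change 0.72 ± 0.19, adjusted p = 0.031, edgeR). Both calls were near the threshold. ND3 lost its call without any single Cornish library other than replicate 2 of 5 weeks, and without replicate 1 of Ogye at 10 weeks, with adjusted p up to 0.11 (lowest over all alternatives 0.00041). With the replicate number as a block ND3 had an adjusted p = 0.061. ND5 lost its call without replicate 1, 3 or 5 of 5 weeks or 1, 2, 3 or 4 of 10 weeks, with adjusted p up to 0.077 (lowest over all alternatives 0.0023).

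The genes of complex IV and ATP synthase were higher at 10 weeks in Cornish by less. ATP6 stood at 5741 ± 815 CPM at 5 weeks and 8979 ± 634 CPM at 10 weeks, with no overlap and a log2 fold change of 0.65 ± 0.20 (adjusted p = 0.052, edgeR). COX1 stood at 28620.4 ± 5222 and 42199 ± 3288 CPM (0.56 ± 0.17, adjusted p = 0.055, edgeR), with replicate 2 of 5 weeks just above the lowest library of 10 weeks. Both lay just outside the threshold, and both passed it without replicates 3, 4 and 5 of Ogye at 5 weeks (adjusted p = 0.022 and 0.046, edgeR), so that 7 of 10 genes rose in that fit, where 20.3% of all genes were called in either direction. They also passed it in several fits without 1 Ogye library, and COX1 without replicate 2 of Cornish at the younger age (adjusted p = 0.034). Over all alternatives the adjusted p of COX1 ran from 0.0033 to 0.12 and that of ATP6 from 0.0039 to 0.12. COX2 (0.48 ± 0.21), COX3 (0.37 ± 0.21) and ND1 (0.34 ± 0.17) did not pass, with adjusted p = 0.17, 0.29 and 0.21 (edgeR).

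**Figure D3:**
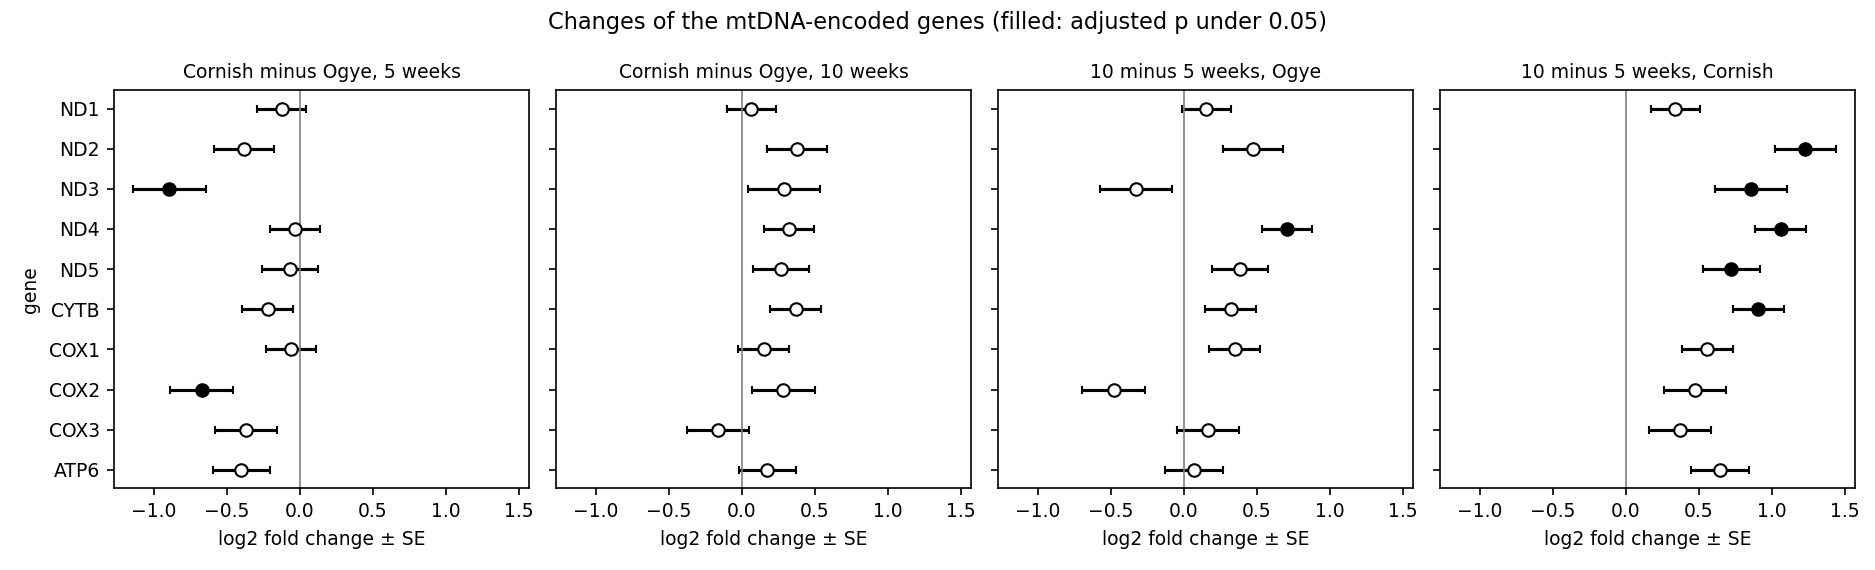
Log2 fold change ± standard error (horizontal axis) of each of the 10 genes (vertical axis) in 4 comparisons. Filled points have an adjusted p under 0.05 by edgeR. For 10 minus 5 weeks in Cornish all 10 points lie right of 0 and 5 are filled, and between the breeds at 10 weeks none is filled.

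The same age comparison in Ogye rests on a group in which 3 of 5 libraries stand apart. ND4 was the single gene of the 10 that was called, at 4872, 3663, 3397, 3558 and 3432 CPM at 5 weeks and 6076, 6811, 4255, 6387 and 7380.4 CPM at 10 weeks. Replicate 1 of 5 weeks was the highest of its group and overlapped the lowest library of 10 weeks, and the log2 fold change was 0.71 ± 0.17 (adjusted p = 0.0031, edgeR). Among all tested genes 21.2% were called higher and 46.1% in either direction, so 1 of 10 is below the background. For none of the 10 were the ages wholly apart, against 19.9% of all tested genes. ND2, COX1, ND5 and CYTB were higher by 0.48 ± 0.21, 0.35 ± 0.17, 0.39 ± 0.19 and 0.32 ± 0.18 without passing (adjusted p = 0.065, 0.11, 0.11 and 0.14, edgeR). COX2 and ND3 had the opposite sign, -0.48 ± 0.21 and -0.32 ± 0.25 (adjusted p = 0.073 and 0.29, edgeR). ND1, COX3 and ATP6 stood at 0.15 ± 0.17, 0.16 ± 0.21 and 0.07 ± 0.20 and were not called (adjusted p = 0.46, 0.54 and 0.79, edgeR).

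Without replicates 3, 4 and 5 of Ogye at 5 weeks, which leaves 2 libraries there, all 10 genes were higher at 10 weeks in Ogye, with a median log2 fold change of 0.40. None was called, where 14.0% of all genes were, and 3 of the 10 had an unadjusted p under 0.05. ND4 fell short at 0.54 (adjusted p = 0.14, range over its alternatives 5.5e-05 to 0.14, edgeR). COX3 came nearest, at 0.73 (adjusted p = 0.054), and ND3 turned sign to 0.55 (adjusted p = 0.1). Single libraries moved this comparison. Without replicate 3 of Ogye at 10 weeks, the lowest of its group, ND2, ND5, COX1, CYTB and ND4 were called higher. In that fit the share of all genes called in either direction was somewhat below the 46.1% called with all 20 libraries. All 5 calls were higher at 10 weeks, and the share of all genes called higher alone was not computed for that fit. With all 20 libraries that share was 21.2%, and 5 of 10 is above it. Without replicate 1 or 2 of 5 weeks or replicate 5 of 10 weeks COX2 was called lower (adjusted p = 0.037, 0.016 and 0.024, range over its alternatives 0.0024 to 0.87, edgeR). Without replicate 2 of 5 weeks ND3 was called lower too (adjusted p = 0.0495, range over its alternatives 0.0035 to 0.63).

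Between the breeds at 5 weeks, ND3 and COX2 were lower in Cornish, 2 of 10 genes where 12.3% of all tested genes were called lower, 6.75% higher and 19.1% in either direction. For 0 of 10 were the breeds wholly apart, against 6.85%. ND3 stood at 512, 399.9, 1198, 1069 and 982 CPM in replicates 1 to 5 of Ogye against 339 to 574 CPM in Cornish, and COX2 at 11018, 9124, 17981, 19376 and 15953 CPM against 8325 to 11207 CPM. For both genes replicates 1 and 2 of Ogye lay inside the Cornish range and replicates 3, 4 and 5 above it. The log2 fold changes were -0.89 ± 0.25 for ND3 (adjusted p = 0.022, edgeR) and -0.67 ± 0.22 for COX2 (adjusted p = 0.037, edgeR). Without the 3 libraries they were -0.02 and -0.13 (adjusted p = 0.98 and 0.87), and none of the 10 genes was called, where 0.904% of all genes were. No single gene of the 10 had an unadjusted p under 0.05 in that fit. Each call was also lost without any 1 of replicates 3, 4 and 5 of Ogye and without replicate 3 of Cornish, and that of COX2 without replicate 1, 4 or 5 of Cornish and under the replicate block as well (adjusted p = 0.057; ranges over the alternatives 3.1e-05 to 0.98 for ND3 and 0.001 to 0.87 for COX2). The other 8 genes differed by -0.40 to -0.03, with none called.

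At 10 weeks none of the 10 genes was called between the breeds by edgeR, where 7.65% of all tested genes were (4.06% higher and 3.59% lower in Cornish), and 1 of the 10, CYTB, had an unadjusted p under 0.05. CYTB stood at 7331, 7331, 4788, 7887 and 9919.8 CPM in Ogye and, as given above, at 8954 to 10431 CPM in Cornish. Replicates 1, 2, 3 and 4 of Ogye lay below all Cornish libraries and replicate 5 inside their range, and the log2 fold change was 0.37 ± 0.18 (adjusted p = 0.21, edgeR). Limma-voom with quality weights called CYTB and ND4 higher in Cornish (adjusted p = 0.033 and 0.045), and DESeq2 called 0 of 10. COX3 was the single gene of the 10 with the opposite sign, -0.16 ± 0.21 (adjusted p = 0.72, edgeR). The other 8 genes were higher in Cornish by 0.06 to 0.38. The breeds were wholly apart for 0 of 10 genes, against 12.3% of all tested genes.

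The difference between the breed effects at the 2 ages was called for ND3 and COX2, at 1.18 ± 0.35 and 0.96 ± 0.30 on the log2 scale (adjusted p = 0.02 and 0.029, edgeR), 2 of 10 genes where 13.3% of all tested genes were called upwards and 23.4% in either direction. Both rest on the 3 libraries: without them the values were 0.31 and 0.41 (adjusted p = 0.46 and 0.39), and 0 of 10 were called, where 13.6% of all genes were. COX2 also lost its call without replicate 3 or replicate 4 of Ogye at 5 weeks alone (adjusted p = 0.055 and 0.061), and stood at the threshold without replicate 3 of Ogye at 10 weeks (0.05). For ND2, ND4, ND5 and CYTB the interaction did not pass (adjusted p = 0.064, 0.29, 0.37 and 0.088, edgeR), so their rise with age in Cornish is not shown to differ from the change in Ogye.

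The mix of transcripts within the mtDNA counts also differed between groups. COX3 took 12.95, 13.49, 14.68, 13.61 and 13.78% of the counts on the 13 protein genes of mtDNA in Cornish at 5 weeks, and 14.89, 14.91, 15.10, 13.92 and 13.91% in Ogye at 10 weeks. In Cornish at 10 weeks it took 11.47, 12.62, 11.39, 11.61 and 10.21%, below every library of those groups. In replicates 1 and 2 of Ogye at 5 weeks it took 10.96% and 12.08%, within the range of Cornish at 10 weeks, and in replicates 3, 4 and 5 it took 17.47%, 17.50% and 14.97%. CYTB ran the other way, with 8.29 to 9.07% in Cornish at 10 weeks, 7.24 to 7.99% in Ogye at 10 weeks and 6.50 to 7.62% in Cornish at 5 weeks, and 8.03% and 7.78% in replicates 1 and 2 of Ogye at 5 weeks.

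Put as a ratio per length, CYTB over COX3 was 0.533, 0.487, 0.522, 0.49 and 0.609 in Cornish at 10 weeks and 0.343, 0.348, 0.329, 0.382 and 0.394 in Ogye at 10 weeks. It was 0.344, 0.348, 0.346, 0.382 and 0.379 in Cornish at 5 weeks and 0.503, 0.442, 0.256, 0.251 and 0.311 in Ogye at 5 weeks. The ratio was therefore higher in Cornish than in every Ogye library at 10 weeks, while at 5 weeks replicates 1 and 2 of Ogye were above every Cornish library and replicates 3, 4 and 5 below them. The level differences behind it were not called for either gene between the breeds. This ratio was picked after its values were seen and has no test. Against replicates 1 and 2 of Ogye at 5 weeks its breed difference turned between the ages, and against replicates 3, 4 and 5 it did not. The means at 5 weeks were 0.352 in Ogye and 0.360 in Cornish.

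**Figure D4:**
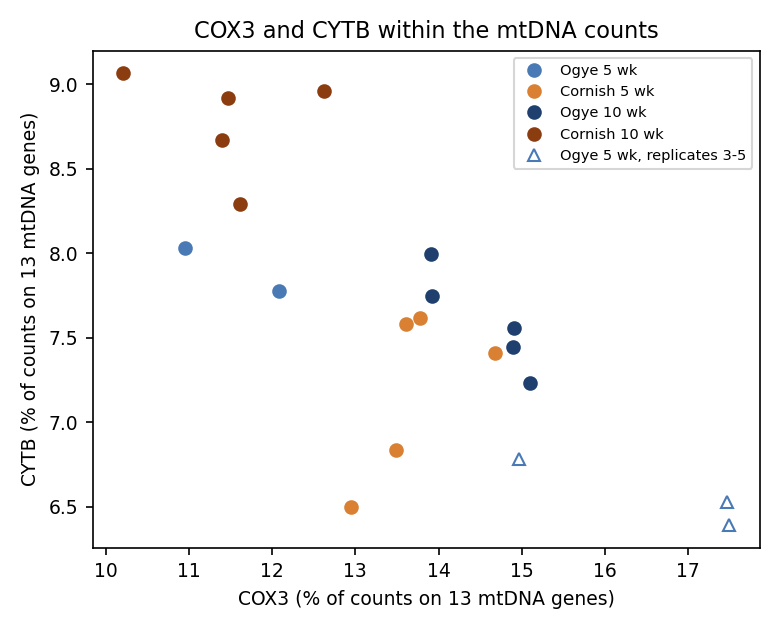
Share of COX3 (horizontal axis) and of CYTB (vertical axis) in the counts on the 13 protein genes of mtDNA, in percent, for each library. Cornish at 10 weeks and replicates 1 and 2 of Ogye at 5 weeks sit at low COX3, between 10.21% and 12.62%, while Cornish at 5 weeks and Ogye at 10 weeks sit between 12.95% and 15.10%.

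Shares of other genes differed between the ages, and none of these shares was tested. ND4 took 4.80 to 5.73% in Cornish and 5.86% and 5.53% in replicates 1 and 2 of Ogye at 5 weeks, against 6.61 to 7.37% and 5.95 to 7.02% in Cornish and Ogye at 10 weeks. ND2 took 2.13 to 3.02% in Cornish at 5 weeks and 3.58 to 4.91% at 10 weeks, with no overlap. COX2 took 12.33 to 14.04% at 5 weeks and 11.26 to 12.78% at 10 weeks in Cornish, where the ages overlapped. In Ogye it took 13.24% or more at 5 weeks and at most 11.78% at 10 weeks. ATP6 varied little between groups, with means between 8.07% and 8.83%.

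Replicates 3, 4 and 5 of Ogye at 5 weeks differed from replicates 1 and 2 gene by gene in a way that went with gene length. Relative to the mean CPM of replicates 1 and 2, ND3 (352 bases) was higher by 1.39, 1.23 and 1.11 on the log2 scale. COX2 and ATP6 (684 bases each) were higher by 0.45 to 0.94 and COX3 (784 bases) by 0.55 to 0.96. The longer genes ND1, ND2, CYTB, COX1 and ND5 lay between -0.17 and 0.49, and ND4 (1378 bases) between -0.33 and -0.26. The per-length ratio of COX2 to COX1, both of complex IV, was 0.736, 0.774, 1.34, 1.45 and 1.3 in replicates 1 to 5. In the 3 other groups it stayed between 0.575 and 0.807. These are values of single libraries and have no test.

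The 2 shortest genes did not follow this. ND4L (297 bases), a complex I subunit whose messenger RNA vertebrates share with ND4, stood at 466, 361, 48.8, 35.2 and 49.5 CPM in replicates 1 to 5, so that replicates 3, 4 and 5 were far below the others. They held 768, 533 and 666 counts, against 9469 and 8311 in replicates 1 and 2. The per-length ratio of ND4L to ND4 was 0.444, 0.457, 0.0666, 0.0459 and 0.0669 there, and between 0.388 and 0.606 in the other 3 groups. ATP8 (165 bases), likewise carried with ATP6 on a shared messenger RNA, stood at 1028, 772, 451, 396 and 331 CPM, and its ratio to ATP6 was 0.641, 0.653, 0.206, 0.176 and 0.175. In the other 3 groups that ratio stayed between 0.610 and 0.964. So in these 3 libraries the 5 genes from 352 to 784 bases, ND6 included at 0.85 to 1.32, were higher and ND4L and ATP8 lower. The cause was not tested.

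**Figure D5:**
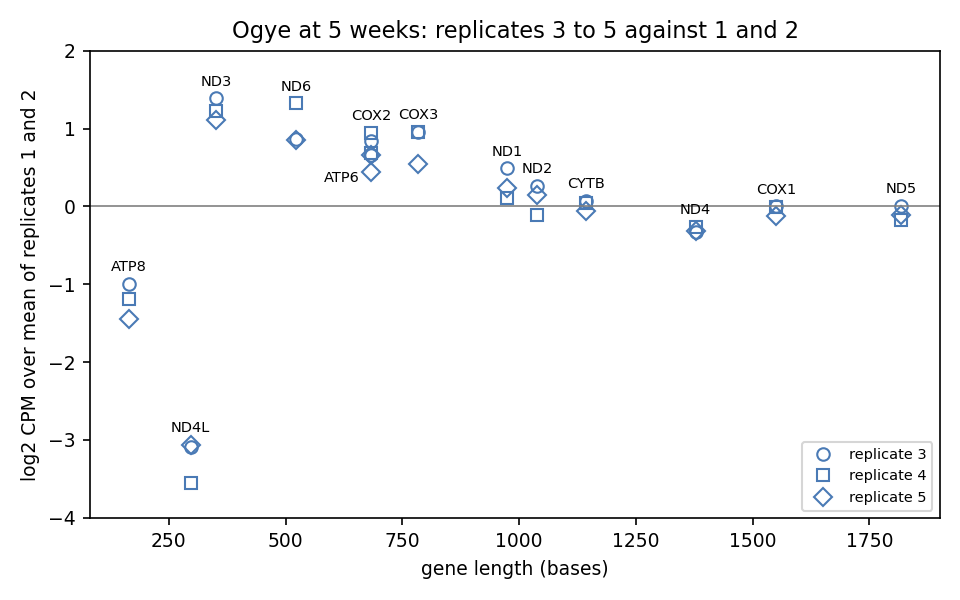
Log2 CPM of replicates 3, 4 and 5 of Ogye at 5 weeks over the mean CPM of replicates 1 and 2 (vertical axis), against gene length in bases (horizontal axis), for the 13 protein genes of mtDNA. ND3, at 352 bases, lies at 1.11 to 1.39, the genes from ND1 (975 bases) upwards lie between -0.33 and 0.49, ND4L lies between -3.55 and -3.06, and ATP8 reaches -1.44.

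The 3 other protein genes moved with age as follows. In Cornish ATP8 rose by 0.86 ± 0.25 on the log2 scale (adjusted p = 0.044, edgeR). ND4L went from 268, 372, 244, 376 and 382 CPM to 944, 879, 852, 871 and 682 CPM there, with no overlap and a log2 fold change of 1.36 ± 0.53 that missed the threshold (adjusted p = 0.11, edgeR). Without the 3 libraries of the other breed, whose spread enters the shared estimate, ND4L was called (adjusted p = 0.00014). In Ogye ND4L rose by 1.91 ± 0.54 (adjusted p = 0.0076), and by 0.81 without the 3 libraries (adjusted p = 0.023). ATP8 also rose in Ogye, by 1.27 ± 0.25 (adjusted p = 0.00075), and missed the threshold without the 3 libraries at 0.68 (adjusted p = 0.051). ND6 fell in Ogye by 0.95 ± 0.28 (adjusted p = 0.0095), a call that ended without the 3 libraries (adjusted p = 0.63), and did not pass in Cornish (0.24 ± 0.27, adjusted p = 0.63). In Cornish at 10 weeks ND6 stood at 411, 457, 392, 387 and 727 CPM, with replicate 5 above the rest. That library also had the highest ratio of ATP8 to ATP6 among the 20, 0.964.

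Nuclear genes that encode partner subunits were counted in the same comparisons. Of 83 listed nuclear subunits of the respiratory chain 65 were in the table and all 65 were tested. From 5 to 10 weeks in Cornish 1 of 65 rose and 0 fell, with a median log2 fold change of 0.08, where 4.07% of all tested genes were called higher. For the mtDNA genes the count was 5 of 10 and the median 0.68, and the difference between the lists was not tested. The one that rose was ATP5E, the small epsilon subunit of ATP synthase, at 85.2 ± 11.8 and 183 ± 14.1 CPM (log2 fold change 1.11 ± 0.23, adjusted p = 0.0076, edgeR). In the fit on 17 libraries 7 rose and 2 fell, with a median of 0.09, where 20.3% of all genes were called. By complex, the medians at 20 libraries were 0.06 for the 31 complex I genes, 0.18 for the 4 of complex II, 0.08 for the 7 of complex III, -0.02 for the 9 of complex IV and 0.17 for the 14 of ATP synthase.

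In Ogye most nuclear subunits were called lower at 10 weeks with all 20 libraries. From 5 to 10 weeks 61 of 65 fell and 1 rose, with a median of -1.26, where 24.8% of all tested genes were called lower. NDUFA13, NDUFAB1 and NDUFC2 of complex I fell, with log2 fold changes of -2.42 ± 0.32, -1.76 ± 0.26 and -2.05 ± 0.31 (adjusted p = 5.2e-05, 0.00011 and 0.00012, edgeR). ATP5E, ATP5L and ATP5PF of ATP synthase fell too, at -1.82 ± 0.23, -1.74 ± 0.26 and -1.40 ± 0.23 (adjusted p = 4.7e-05, 0.00012 and 0.00018). Without the 3 libraries all 6 stayed called with smaller values, -1.19, -0.87 and -0.95 for NDUFA13, NDUFAB1 and NDUFC2 and -1.25, -0.78 and -0.49 for ATP5E, ATP5L and ATP5PF (adjusted p from 0.0016 to 0.02, edgeR). On 17 libraries 16 of 65 fell and 0 rose, with a median of -0.31, where 14.0% of all genes were called in either direction. Between the breeds at 5 weeks 52 of 65 were lower in Cornish and 0 higher, with a median of -0.88, where 12.3% of all tested genes were called lower. This became 1 of 65 without the 3 libraries, with a median of -0.01, where 0.904% of all genes were called. COX7C, COX7A2 and COX6A1, short nuclear subunits of complex IV, stood at -1.43 ± 0.27, -0.96 ± 0.20 and -1.15 ± 0.26 with all 20 libraries (adjusted p = 0.0063, 0.0077 and 0.01, edgeR), and none of the 3 stayed called without the 3 libraries.

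At 10 weeks 2 of 65 nuclear subunits were higher in Cornish than in Ogye and 0 lower, with a median of 0.36, where 4.06% of all tested genes were called higher. The median of the mtDNA genes was 0.28. They were ATP5E (1.24 ± 0.23, adjusted p = 0.0041, edgeR) and NDUFV1, the complex I subunit that binds NADH (0.89 ± 0.27, adjusted p = 0.047). On 17 libraries 25 of 65 were called higher and 0 lower, with a median of 0.35, where 17.2% of all genes were called in either direction, and 0 of the 10 mtDNA genes were. The breed effect differed between the ages for 54 of 65 nuclear subunits, all upwards, where 13.3% of all tested genes were called upwards. Without the 3 libraries it differed for 6 of 65, all upwards. In that fit 856 of all 10957 genes were called upwards, and 13.6% in either direction.

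Genes that transcribe mtDNA were measured for 11 of 15 listed. POLRMT, the mitochondrial RNA polymerase, stood at similar levels in the 4 groups, 22 ± 1.34 and 22.9 ± 2.7 CPM in Ogye and Cornish at 5 weeks and 24.3 ± 3.03 and 24.2 ± 2.18 CPM at 10 weeks. It was called in none of the 5 comparisons (log2 fold changes -0.06 to 0.14), and its groups overlapped. TFAM, which packages mtDNA and opens its promoters, fell with age in Ogye by 0.77 ± 0.17 (adjusted p = 0.0015, edgeR) and was lower in Cornish than in Ogye at 5 weeks by 0.55 ± 0.17 (adjusted p = 0.03). Neither TFAM call held without the 3 libraries (adjusted p = 0.27 and 0.94). With age in Ogye 4 of the 11 genes fell and 1, GABPA, rose by 0.62 ± 0.15 (adjusted p = 0.0035, edgeR). There 24.8% of all tested genes were called lower and 21.2% higher. At 5 weeks GABPA was higher in Cornish by 0.51 ± 0.15 (adjusted p = 0.03, edgeR). The GABPA calls did not hold without the 3 libraries either (adjusted p = 0.22 and 0.74). In Cornish TFAM differed by -0.11 ± 0.17 between the ages (adjusted p = 0.73).

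From 5 to 10 weeks in Cornish 2 of these 11 genes fell and 0 rose, where 3.29% of all tested genes were called lower and 7.36% in either direction. TFB1M, a methyltransferase of the mitochondrial ribosomal RNA, fell by 0.53 ± 0.13 (adjusted p = 0.018, edgeR). PPRC1, a coactivator related to PPARGC1A, fell by 1.25 ± 0.25 (adjusted p = 0.0072). PPARGC1A itself, the coactivator best known for raising mitochondrial gene expression in mammals, stood at 8.4 ± 5.96 CPM at 5 weeks and 23.2 ± 7.64 CPM at 10 weeks in Cornish (1.46 ± 0.64, adjusted p = 0.15). On 17 libraries it was called (1.46, adjusted p = 0.0496). In Ogye, where its libraries of 5 weeks ran from 3.11 to 66.5 CPM, it fell to 2.8 ± 1.5 CPM at 10 weeks (-2.92 ± 0.70, adjusted p = 0.0028). At 10 weeks it was higher in Cornish by 3.05 ± 0.70 (adjusted p = 0.013), and its interaction was 4.38 ± 0.95 (adjusted p = 0.0038). On 17 libraries its fall in Ogye was -3.83 (adjusted p = 0.0021) and its interaction 5.29 (adjusted p = 0.00084). PPARGC1A thus differed between the breeds at 10 weeks. None of the 10 mtDNA genes was called there by edgeR, and 9 of 10 had a higher value in Cornish. Of the 11 genes 2 were called higher and 1 lower there, where 4.06% and 3.59% of all tested genes were. The other 2 calls were TFB1M, lower in Cornish (-0.68 ± 0.13, adjusted p = 0.0048, edgeR), and MTERF2, higher (0.82 ± 0.25, adjusted p = 0.048, edgeR).

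By the rule fixed for genes most alike, the log2 CPM of 10158 genes outside mtDNA was ranked by Spearman correlation with the log2 of the summed CPM of the 10 genes over the 20 libraries. The highest were PIGR (0.80), ADI1 (0.80), ITIH2 (0.79), HABP2 (0.79), ANO1 (0.79) and PHYH (0.78). PIGR carries antibodies into bile, and ITIH2 and HABP2 are proteins that liver secretes into blood. PIGR stood at 419 ± 91.8 and 327 ± 78.1 CPM in Ogye and Cornish at 5 weeks, and at 750.0 ± 636 and 1372 ± 209.8 CPM at 10 weeks, with 1 Ogye library of 10 weeks at 1862 CPM. Over the 17 libraries without the 3, the 6 values ran from 0.72 to 0.86. The points share libraries and scaling, and the values are a description.

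Markers of other cells of liver were set beside these results. The heterophil markers, of which 7 of 9 were in the table, summed to 434 to 1155 CPM in Ogye and 28.4 to 125 CPM in Cornish at 10 weeks, and to 79.3 to 196 CPM and 173 to 528 CPM at 5 weeks. The heterophil sum was lowest in Cornish at 10 weeks, which had the highest mean mtDNA share. It was highest in Ogye at 10 weeks, which had the next highest mean share. Within Ogye at 10 weeks replicate 5, highest in share at 11.2%, had the lowest sum, 434 CPM. Replicate 3 there, lowest in share at 6.43%, had the highest sum, 1155 CPM. Within Cornish at 5 weeks replicate 2 was highest in both (9.65% and 528 CPM) and replicate 3 lowest in both (6.50% and 173 CPM). The erythroid markers (5 of 10 in the table, none of them at 0 through a whole group) summed to 105 to 252 CPM in Ogye at 5 weeks and to between 69.7 and 208 CPM in the other groups. Globin RNA was removed before sequencing, so any globin gene among these markers may also reflect that removal. Macrophage markers (8 of 9) ran from 1521 to 4198 CPM over the 20 libraries, highest in replicate 5 of Ogye at 5 weeks, endothelial markers (8 of 8) from 271 to 647 CPM, stellate markers (8 of 8) from 281 to 744 CPM and biliary markers (5 of 6) from 52.6 to 147 CPM. The part of these cells in the mtDNA levels was not tested.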

How the data were processed

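Per the submitters' processing notes, the authors checked reads with FastQC and MultiQC, aligned them with STAR to GRCg7b and counted them with featureCounts. For tool versions, parameters, annotation and strand, settings were not given in the sources used here. In the deposited table, raw counts of 20 libraries fill 54062 rows: 13956 carry a gene symbol, 40097 are assembled transcripts and 9 have no gene name. Assembled rows held 30.4% to 37.0% of a library's counts and rows without a name 0.0126% to 0.0593%; both were left out of the tests.

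Named genes were filtered with filterByExpr and scaled by TMM. A model with a mean for each of 4 groups was fitted to 20 libraries by robust quasi-likelihood with edgeR 4.0.16 in R 4.3.3, which shares the estimate of spread between groups. Its 5 contrasts were tested 2-sided. The standard error is the log2 fold change divided by the square root of F. Alternatives were size factors by relative log expression, library sizes without the 10 genes, DESeq2 1.42.0, limma-voom (limma 3.58.1) with quality weights, no filter, a minimum of 1 CPM in 5 libraries, a block for replicate number, a fit to only the groups compared, all rows, dropping the 3 libraries of Ogye at 5 weeks that stand apart, and leaving out each library. The fit was tested on simulated data.

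The members, gene lists and alternatives were chosen with earlier results of these data known. All 10 genes are named in each comparison; of the nuclear lists, genes are taken from up to 3 called members with the lowest adjusted p per list and comparison. POLRMT, TFAM in Cornish, PPARGC1A in Cornish, GABPA with age in Ogye, ND4L, ND6 and ATP8 where not called, the ratios between genes and the genes named only on 17 libraries lie outside the rule, having been picked with their values in view. Of the fixed symbols, 11 were matched to the older symbols that the table uses, and all positions and lengths come from the RefSeq table of GRCg7b. No 2 libraries were identical (highest Spearman correlation 0.986). Counting error is small at these depths and spread between libraries sets the precision.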

Additional observations from a re-analysis of the deposited data

Results flagged for a closer look

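ND4 in replicate 1 of Ogye at 5 weeks stood at 4872 CPM, far from the other 4 libraries of its group, which ran from 3397 to 3663 CPM. It was the single case among 44 groups of 5 libraries that were screened for 1 library far from the rest, and chance marks about 1 in 20 groups.

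The breed effect differed between the ages for ND3, by 1.18 on the log2 scale (adjusted p = 0.02, edgeR), and for COX2, by 0.96 (adjusted p = 0.029, edgeR). In Ogye at 5 weeks replicates 3, 4 and 5 were above replicates 1 and 2 for both genes, and without these 3 libraries the differences were 0.31 and 0.41 and neither was called. What set the 3 libraries apart was not tested.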

How the results depend on the processing

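Counts of called genes among the 10 moved with the tool and the libraries, while no gene called in the main fit changed direction in any alternative. COX2 and ND3 with age in Ogye, and COX3 between the breeds at 5 weeks, were called lower in 1 or more alternatives only. Without replicates 3, 4 and 5 of Ogye at 5 weeks their signs turned, to 0.07, 0.55 and 0.19, and none was called. Percentages in brackets give the share of all genes called in the same fit, in either direction. Between the breeds at 5 weeks the 2 calls (19.1%) became 4 with limma-voom and quality weights (55.9%), all lower in Cornish. The share of all genes called lower alone was not computed for that fit. The 2 calls became 1 with the replicate block, where the share called in either direction was slightly lower than in the main fit. They became 0 without replicates 3, 4 and 5 of Ogye at 5 weeks (0.904%). In the compared groups alone they became 0 as well, and there the share was lower still. At 10 weeks 0 (7.65%) became 2 with limma-voom (21.2%). With age in Ogye the 1 call, higher at 10 weeks (46.1%), became 4 with DESeq2, 3 higher and 1 lower (49.6%). It became 3 with limma-voom, 1 higher and 2 lower (62.4%), and 0 without the 3 libraries (14.0%). With age in Cornish 5 (7.36%) became 8 with limma-voom (26.6%) and 8 in the compared groups alone. In the compared groups alone the share was also well above that of the main fit. The step from 5 to 8 is thus not particular to the 10 genes. For the interaction 2 (23.4%) became 4 with DESeq2 (28.3%), 5 with limma-voom (53.8%) and 0 without the 3 libraries (13.6%). Leaving out 1 library gave 0 to 3, 0 to 0, 1 to 5, 3 to 7 and 1 to 5 calls in the order above. The share of all genes called moved between these fits as well. At the highest count it was above the main fit between the breeds at 5 weeks and for the interaction. It was below the main fit with age in Ogye, and on either side of it with age in Cornish. Limma-voom also called far more of all genes, 21.2% to 62.4% over the 5 comparisons. The cause of these differences was not tested.

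Over 30 same-numbered pairs of libraries the correlation of deviations from the group means ran from -0.24 to 0.28 and exceeded 0.1 in 7. Weak correlations such as these cannot exclude a pairing or a shared batch. The replicate block ended the calls of COX2 at 5 weeks and ND3 with age in Cornish. What the replicate number stands for is not given in the sources used here. Relative log expression and library sizes without the 10 genes moved the median of all genes by less than 0.1 on the log2 scale. Both scalings centre most genes as TMM does, so that median could hardly move. A fit on plain library sizes was not run. Between the breeds at 5 weeks the 10 genes had a median log2 fold change of -0.29 after TMM scaling, with 0 of them positive. The difference in the share of counts on the 10 genes was -0.0738 percentage points between the breeds at 5 weeks and ran from -0.473 to 0.315 when 1 library was left out, so it has no direction. With age in Cornish it was 2.08 and ran from 1.69 to 2.48, between the breeds at 10 weeks it was 1.39 (0.806 to 1.99), with age in Ogye 0.619 (0.0153 to 1.20) and for the interaction 1.46 (0.880 to 2.06). The first and last of these 3 were lowest without replicate 3 of Ogye at 10 weeks, and that of age in Ogye without replicate 5.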

Other observations

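Genes that copy mtDNA and genes that cut, protect and degrade its RNA were measured beside the mtDNA transcripts, 14 of 14 and 20 of 20 of those listed. From 5 to 10 weeks in Cornish none of either list was called by edgeR, where 7.36% of all tested genes were. The medians were -0.28 and -0.03 on the log2 scale. Without replicates 3, 4 and 5 of Ogye at 5 weeks 0 of the 14 and 3 of the 20 were called there, where 20.3% of all genes were. The 3 were SLIRP (-0.32) and GRSF1 (-0.37) lower and PTCD3 (0.28) higher. From 5 to 10 weeks in Ogye 6 of the 14 fell, led by DGUOK, a kinase that makes DNA precursors in mitochondria, at -1.80 ± 0.41 (adjusted p = 0.0021), and 5 of the 20 fell and 3 rose. Of all tested genes 24.8% were called lower, 21.2% higher and 46.1% in either direction. With all 20 libraries the 6 of 14 that fell are above the share called lower, and the 5 of 20 are near it. Taken over both directions, the calls of each list stay under 46.1%. MTPAP, which adds tails of A to mitochondrial RNA, rose by 0.56 ± 0.11 (adjusted p = 0.00062), and SLIRP, which with LRPPRC guards mitochondrial messenger RNA, fell by 1.28 ± 0.25 (adjusted p = 0.00074). Without the 3 libraries the call of MTPAP held (0.56, adjusted p = 0.015), and those of SLIRP (-0.18, adjusted p = 0.35) and DGUOK (-0.09, adjusted p = 0.88) did not. In that fit 1 of the 14 fell and 0 rose, and 1 of the 20 fell and 2 rose. There 14.0% of all genes were called in either direction. LRPPRC itself, chosen after its values were seen, stood at 97.4 ± 11.6, 104 ± 15.6, 104 ± 8.71 and 108 ± 13.5 CPM in Ogye and Cornish at 5 weeks and Ogye and Cornish at 10 weeks, within the spread between libraries.

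Between the breeds the only calls in these 2 lists with all 20 libraries were TOP3A at 5 weeks (0.86 ± 0.27, adjusted p = 0.034), SLIRP at 5 weeks (-1.03 ± 0.25, adjusted p = 0.013) and MTPAP at 10 weeks (-0.40 ± 0.11, adjusted p = 0.031). Of these MTPAP kept its call without the 3 libraries (adjusted p = 0.017).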
